A study of Mus musculus with 6 samples.

Results

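The vascular endothelial growth factor (VEGF) family was described here through 10 genes of the 26049 in the deposited matrix: the ligands Vegfa, Vegfb, Vegfc, Vegfd and Pgf, the receptors Flt1, Kdr and Flt4, and the co-receptors Nrp1 and Nrp2. They were taken by name as a family, with earlier results of these data known. The source was single-nucleus RNA sequencing of hippocampi from male PS19 mice, transgenic for human tau with the P301S mutation, a strain that develops tau aggregates. All 6 libraries have this genotype, and no mouse without the transgene was measured. Cortical impact to the right hemisphere, a mild traumatic brain injury (TBI), was set against a sham operation, and an adeno-associated virus carrying VEGFC (AAV-VEGFC) against one carrying GFP (AAV-GFP).

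There was 1 library each of TBI AAV-VEGFC right, TBI AAV-VEGFC left, sham AAV-VEGFC right, TBI AAV-GFP right, TBI AAV-GFP left and sham AAV-GFP right hippocampus. Neither the number of mice behind a library nor whether left and right tissue shared mice is stated. No combination of injury, vector and side is repeated, so p-values measure departures of these libraries from the fitted models, which may be partly technical. Of 28650 nuclei each library gave 3676 to 6002. Molecules were counted as unique molecular identifiers (UMIs), which totalled 15358208 in the shallowest library and 18379148 in the deepest. A set of 91 barcodes occurred in more than 1 library (182 nuclei). The authors sorted the nuclei into 9 classes and 32 clusters. None of the 9 classes is named endothelial. Cldn5, the defining claudin of brain endothelium, stayed at or below 7.71 CPM (UMIs of a gene per 1e6 UMIs) in each class. The sum of 15 endothelial markers was highest in choroid-plexus epithelium, at 1032 to 1136 CPM in its 6 libraries.

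In most tissues VEGFA signals to blood vessel endothelium through the kinase receptor encoded by Kdr, while the receptor encoded by Flt1 binds VEGFA, VEGFB and placental growth factor tightly and signals weakly. VEGFC and VEGFD act on the receptor encoded by Flt4, best known from lymphatic endothelium, which brain tissue proper lacks and the meninges have. The neuropilins bind several VEGFs and also secreted semaphorins, which steer axons during development. On the mm10 build the ligand genes lie at chr17:46016993-46032369 (Vegfa, minus strand), chr19:6982473-6987651 (Vegfb, minus), chr8:54077606-54187096 (Vegfc, plus), chrX:164373378-164402650 (Vegfd, plus) and chr12:85166635-85177790 (Pgf, minus). The receptor genes lie at chr5:147561604-147726011 (Flt1, minus), chr5:75932827-75978458 (Kdr, minus) and chr11:49609263-49652739 (Flt4, plus), and the neuropilin genes at chr8:128358604-128503363 (Nrp1, plus) and chr1:62703285-62818695 (Nrp2, plus). These spans run from 5179 to 164408 bases, and nuclear reads can come from introns, so levels are compared between classes for 1 gene and not between genes.

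Levels are CPM of a class or cluster within 1 library, and each mean is over the 6 libraries with its SD. The order of classes is a description without a test, since the classes were formed from these same nuclei. Vegfa was highest in astrocytes and in choroid-plexus epithelium, Vegfb, Vegfc and Vegfd had their highest means in fibroblasts, Flt1 was highest in fibroblasts, Nrp1 in excitatory neurons and microglia, and Nrp2 in microglia and neurons. Kdr and Flt4 were close to the limit of detection everywhere.

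**Figure D1:**
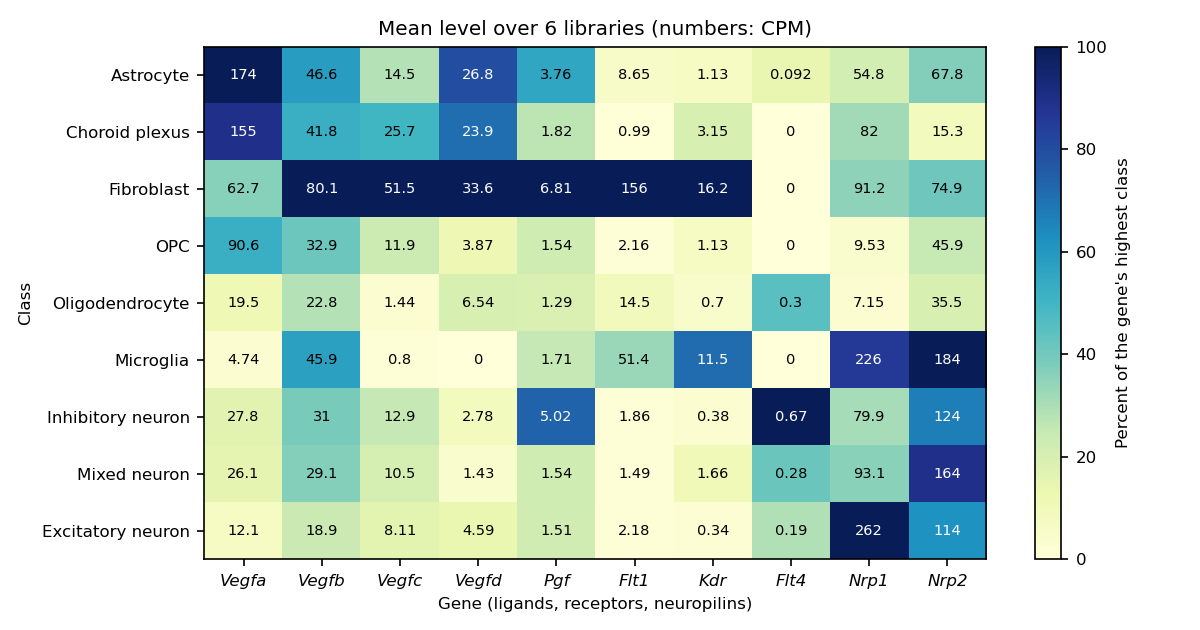
Mean level (CPM) of the 10 genes in the 9 classes; the colour gives the percent of the gene's highest class, and the printed numbers are the means over 6 libraries. Vegfa peaks in astrocytes (174 CPM) and choroid plexus (155 CPM), Flt1 in fibroblasts (156 CPM) and Nrp1 in excitatory neurons (262 CPM).

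Vegfa, the main angiogenic ligand, had 194 CPM in the TBI AAV-VEGFC right library, 176 in TBI AAV-VEGFC left and 149.5 in sham AAV-VEGFC right astrocytes, against 164 in TBI AAV-GFP right, 183 in TBI AAV-GFP left and 174 in sham AAV-GFP right. The mean of 174 ± 15.6 CPM rested on 1801 UMIs, and the vector groups overlapped. Choroid-plexus epithelium followed with 155 ± 16.2 CPM, and its range over the libraries overlapped that of astrocytes. The next class, oligodendrocyte precursor cells (OPCs), had 90.6 ± 17.9 CPM and lay below choroid plexus in range. Fibroblasts had 62.7 ± 20.8 CPM, inhibitory neurons 27.8 ± 3.43, mixed neurons 26.1 ± 8.60, oligodendrocytes 19.5 ± 7.12 and excitatory neurons 12.1 ± 1.38 CPM, with each neighbour overlapping the next. Microglia held 3 Vegfa UMIs in all.

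The share of nuclei with a Vegfa UMI was 24.4% in astrocytes at a median of 1671 UMIs per nucleus and 0.739% in microglia at a median of 1260. With every nucleus thinned to 1000 UMIs the shares were 15.3% in astrocytes and 0.597% in microglia. Excitatory neurons, at a median of 4222 UMIs, had 5.05% before thinning and 1.20% after it. The difference between astrocytes and neurons was thus present per UMI as well as per nucleus.

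The astrocyte clusters differed among themselves. Vegfa averaged 207 ± 19.4 CPM in Astrocyte 1 (3680 nuclei), 125 ± 16.5 CPM in Astrocyte 3 (1805 nuclei) and 69.8 ± 17.9 CPM in Astrocyte 2 (207 nuclei). The lowest Astrocyte 1 library stood at 178 CPM and the highest Astrocyte 3 library at 150.2 CPM, so the ranges did not overlap. Among neurons Inhibitory neuron 1 led with 43.2 ± 4.89 CPM.

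Vegfb, a ligand of the Flt1 receptor, was the most evenly spread of the ligands. Fibroblasts had 80.1 ± 15.8 CPM from 48 UMIs, astrocytes 46.7 ± 9.47 CPM from 481 UMIs, and excitatory neurons, the lowest class, 18.9 ± 2.34 CPM from 1086 UMIs. Each class overlapped the next in the order. Over the clusters, Vegfb was closest in pattern to Nelfb, Nadsyn1 and Sfxn4 (Pearson r 0.923, 0.921 and 0.908 of log2(CPM + 1) over 32 clusters, which share libraries and differ in depth).

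Vegfc, the lymphangiogenic ligand carried by the vector, was detected in fibroblasts, choroid plexus, astrocytes and neurons. Over all nuclei it stood at 10.2 CPM in TBI AAV-VEGFC right, 10.2 in TBI AAV-VEGFC left and 10.9 in sham AAV-VEGFC right, against 10.7, 10.7 and 10.6 CPM in the matched AAV-GFP libraries. In such sums over all nuclei, fewer cells of a type and less RNA per cell cannot be told apart. The groups overlapped, and AAV-VEGFC over AAV-GFP gave a log2 fold of -0.01 (SE 0.11, edgeR adjusted p = 0.998). Whether RNA from the vector would be counted as mouse Vegfc is not stated, so this is the level of the gene as annotated. By class, fibroblasts had 51.5 ± 23.2 CPM from 33 UMIs, choroid plexus 25.7 ± 5.70 CPM from 87 UMIs and astrocytes 14.5 ± 2.75 CPM from 150 UMIs. Choroid plexus lay above astrocytes in all libraries, and fibroblasts overlapped choroid plexus. Oligodendrocytes held 5 UMIs and microglia 1 UMI.

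Among neurons Vegfc was uneven. Excitatory neuron 11 had 45.2 CPM in TBI AAV-VEGFC right, 21.6 in TBI AAV-VEGFC left and 64.2 in sham AAV-VEGFC right, against 47.3, 65.0 and 62.6 CPM in the matched AAV-GFP libraries, a mean of 51.0 ± 16.8 CPM from 77 UMIs. Inhibitory neuron 1 averaged 22.5 ± 5.75 CPM, while Excitatory neuron 6 stood at 0.469 CPM. Lix1l and Vgll3 were the genes closest to Vegfc over the clusters (Pearson r 0.713 and 0.663, n = 32 clusters).

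Vegfd, the other lymphangiogenic ligand, had 33.7 ± 19.1 CPM in fibroblasts from 18 UMIs, 26.8 ± 4.01 CPM in astrocytes from 280 UMIs and 23.9 ± 3.98 CPM in choroid plexus from 77 UMIs, 3 classes whose ranges overlapped. Oligodendrocytes were next at 6.54 ± 4.43 CPM, below choroid plexus in range. Microglia held 0 Vegfd UMIs. Among neurons, Excitatory neuron 7 stood out with 44.5 CPM in TBI AAV-VEGFC right, 38.8 in TBI AAV-VEGFC left and 40.4 in sham AAV-VEGFC right, against 41.7 in TBI AAV-GFP right, 37.1 in TBI AAV-GFP left and 2.75 in sham AAV-GFP right. The sham AAV-GFP library was the low one, with 2 UMIs from 135 nuclei.

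Pgf, which encodes placental growth factor, was sparse, with 242 UMIs over all nuclei. Inhibitory neurons held 93 of them, a mean of 5.02 ± 1.93 CPM, and excitatory neurons 87 (1.51 ± 0.586 CPM). Fibroblasts had the highest mean, 6.81 ± 8.86 CPM, from 4 UMIs. Their 3 AAV-VEGFC libraries held none and their AAV-GFP libraries 13.1 (TBI right), 21.4 (TBI left) and 6.34 CPM (sham right).

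**Figure D2:**
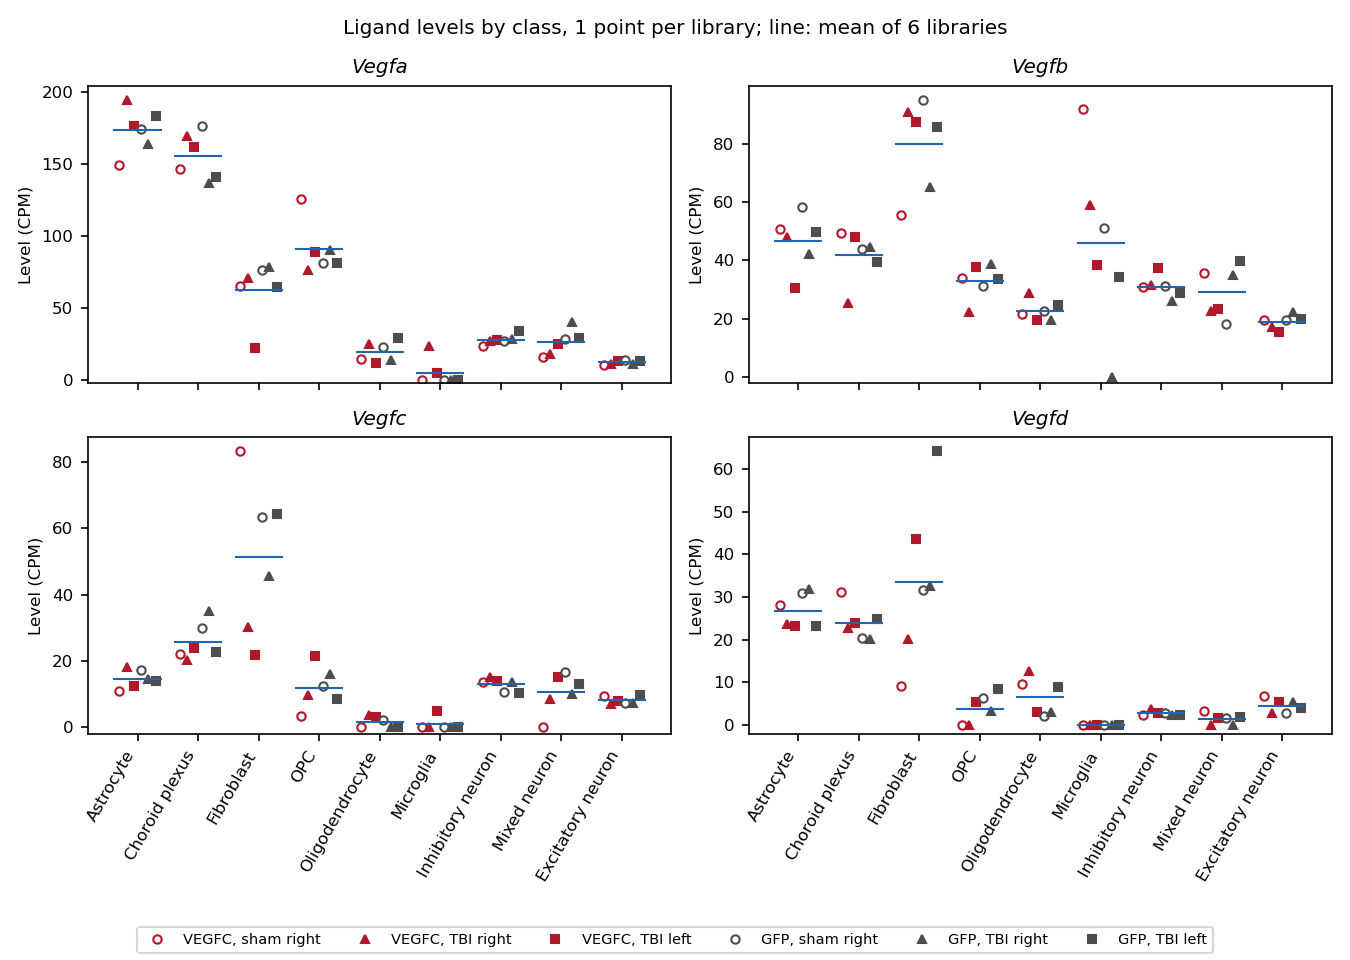
Level (CPM) of the 4 ligands Vegfa, Vegfb, Vegfc and Vegfd by class, with 1 point per library and a line at the mean of 6 libraries; AAV-VEGFC libraries are red and stand left of the grey AAV-GFP libraries, and open circles are sham. Astrocyte Vegfa lies between 149.5 and 194 CPM in every library, while fibroblast points, from 45757 to 157647 UMIs per library, scatter widely.

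Flt1 had 434 UMIs over all nuclei. Fibroblasts had 273 CPM in TBI AAV-VEGFC right, 153 in TBI AAV-VEGFC left and 121 in sham AAV-VEGFC right, against 157 in TBI AAV-GFP right, 129 in TBI AAV-GFP left and 102 in sham AAV-GFP right. Their mean was 156 ± 61.3 CPM from 93 UMIs in 69 of 412 nuclei. Microglia followed with 51.4 ± 42.4 CPM from 28 UMIs, oligodendrocytes with 14.5 ± 13.5 and astrocytes with 8.65 ± 3.15 CPM. The remaining 5 classes had 0.993 to 2.18 CPM. The lowest of them, choroid-plexus epithelium, had a UMI in 0.232% of nuclei at a median of 2374 UMIs, and fibroblasts in 16.8% at a median of 1359 UMIs (11.8% after thinning).

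The fibroblast class was checked against its markers, because Flt1 is best known from endothelium and mural cells surround vessels. The 10 fibroblast markers summed to 6316 to 7311 CPM in its 6 libraries and were present in 410 of 412 nuclei, led by Ranbp3l, Cped1 and Slc6a13. The 11 mural markers summed to 1224 to 1472 CPM, led by Vtn and Pdgfrb, with Kcnj8 and Myh11 at 0. The 15 endothelial markers summed to 338 CPM, led by Slco1a4 and Cdh5, with Erg, Mecom and Cyyr1 at 0 and Cldn5 at 3.28 CPM. Fibroblast nuclei with a Flt1 UMI had 397 CPM of endothelial markers, 1614 CPM of mural markers and 7000 CPM of fibroblast markers, and those without one had 324, 1273 and 6916 CPM. The astrocyte markers Slc1a3, Gja1, Slc1a2, Gfap, Aldh1l1 and Aqp4 summed to 1776 CPM in this class, above the mural and endothelial sums, led by Slc1a3. Whether other cell types contribute to its Flt1 was not tested beyond these sums.

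In astrocytes and oligodendrocytes most of the Flt1 signal lay with endothelial markers in the same nuclei. In excitatory neurons, inhibitory neurons and microglia a smaller part did. The 10 genes are not on the list of 15 endothelial markers, and the limit of 4 markers used here was chosen after the values were seen. A group of 70 nuclei, 0.244% of all, had UMIs of at least 4 different endothelial markers. They held 175 of the 434 Flt1 UMIs (40.3%), at 670 CPM (95% Poisson interval 574 to 777, counting error only), against 2.59 CPM (2.28 to 2.92) in all other nuclei. A Flt1 UMI was present in 75.7% of the 70 nuclei, at a median of 3433 UMIs, and in 0.749% of the others. By class the 70 nuclei held 72 of 90 Flt1 UMIs in astrocytes and 33 of 47 in oligodendrocytes. They held 49 of 125 in excitatory neurons, 11 of 37 in inhibitory neurons, 8 of 28 in microglia and 0 of 7 in mixed neurons. By number of markers the level was 1.98 CPM with none, 4.34 with 1, 8.24 with 2 and 28.6 with 3. It was 514 CPM with 4 and 152 CPM with 5 (93 nuclei had 3 markers and 16 had 4). With at least 3 markers there were 163 nuclei, 78 of them in choroid plexus.

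These 70 nuclei were spread over the authors' classes, with 24 in astrocytes (20 of them in Astrocyte 3), 22 in excitatory neurons, 9 in oligodendrocytes, 8 in inhibitory neurons, 3 in choroid plexus, 2 in microglia and none in fibroblasts. They held 195 CPM of Cldn5, 448 CPM of Adgrl4 and 149 CPM of Erg, against 2.05, 0.989 and 0.810 CPM in all other nuclei. By library they numbered 10 in TBI AAV-VEGFC right, 9 in TBI AAV-VEGFC left and 11 in sham AAV-VEGFC right, against 19, 10 and 11 in the matched AAV-GFP libraries. Their Flt1 level was 541, 857 and 676 CPM in those AAV-VEGFC libraries, against 780, 519 and 550 CPM in the AAV-GFP libraries, and the counting intervals overlapped. Nrp1 stood at 142 CPM (99.7 to 195) in them and 178 CPM in the others, and Vegfc at 45.9 CPM (23.7 to 80.2) and 10.4 CPM. Their 12 Vegfc UMIs lay in 8 nuclei and were uneven by library. TBI AAV-VEGFC right held 6, TBI AAV-VEGFC left 4 and sham AAV-VEGFC right 0, against 1, 0 and 1 in the matched AAV-GFP libraries. Those 6 and 4 UMIs came from 3 nuclei each, and an effect of the vector in these nuclei was not tested.

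**Figure D3:**
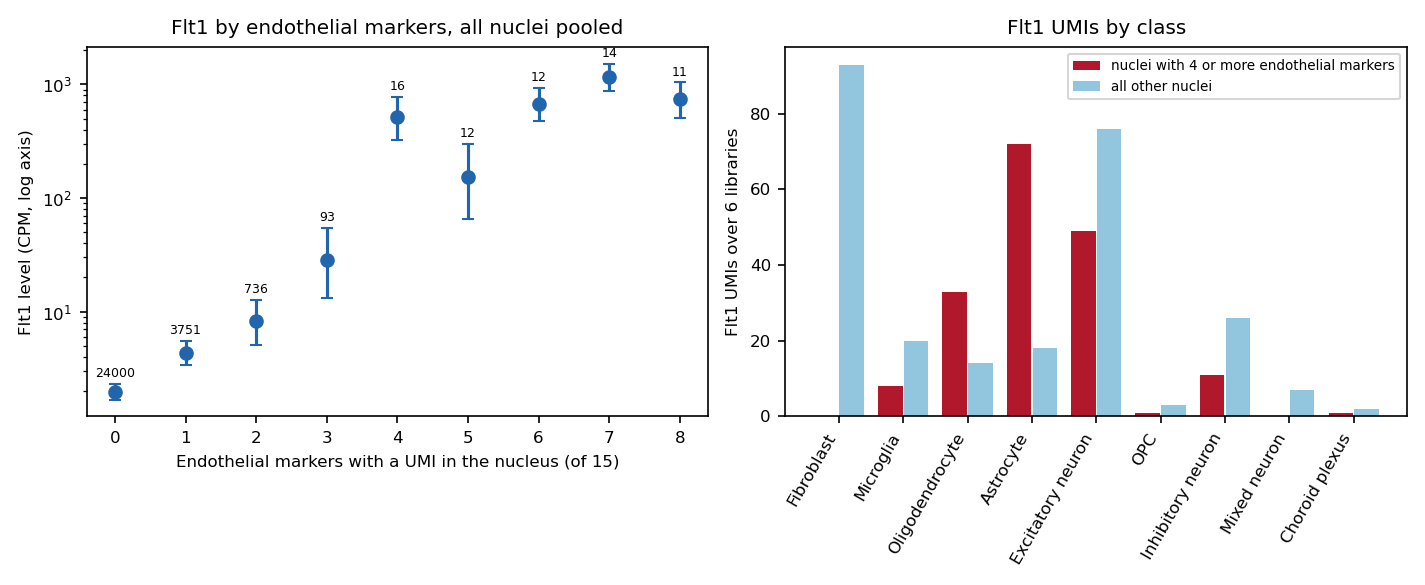
Left, Flt1 level (CPM, log axis) against the number of endothelial markers with a UMI in a nucleus, with 95% Poisson intervals and the number of nuclei above each point (0 to 8 markers). Right, Flt1 UMIs by class in nuclei with 4 or more endothelial markers (red) and in all other nuclei (blue): 72 of 90 astrocyte UMIs and 33 of 47 oligodendrocyte UMIs sit in the red nuclei, and none of the 93 fibroblast UMIs do. Of 125 excitatory neuron UMIs, 49 sit in the red nuclei.

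Without these nuclei the astrocyte Flt1 level was 1.72 ± 1.4 CPM and the oligodendrocyte level 4.48 ± 3.41 CPM, while that of fibroblasts stayed at 156 CPM. Astrocyte 3 had 22.5 ± 10.1 CPM of Flt1 before they were left out, and Astrocyte 1 at most 2.82 CPM. In microglia the sham AAV-VEGFC library stood apart with 129 CPM of Flt1, and the same library had 294 CPM of mural markers, against 0.0 to 34.4 CPM in the other 5 microglial libraries. Whether mural RNA has a part in that value was not tested.

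Kdr, the main signalling receptor for VEGFA, had 71 UMIs over all nuclei, and Flt4, the receptor for VEGFC, had 27. Kdr was highest in fibroblasts (16.2 ± 13.8 CPM from 10 UMIs), and 6 of its UMIs lay in the nuclei with at least 4 endothelial markers, where it stood at 23.0 CPM (8.43 to 50) against 0.650 CPM (0.501 to 0.828) in the others. Flt4 had 13 UMIs in inhibitory neurons, 11 in excitatory neurons and 1 each in astrocytes, oligodendrocytes and mixed neurons. It had 0 UMIs in choroid plexus, fibroblasts, microglia and OPCs, and 1 in the 70 nuclei. Over all nuclei Flt4 had 0.260 CPM in TBI AAV-VEGFC right, 0.311 in TBI AAV-VEGFC left and 0.381 in sham AAV-VEGFC right, against 0.116, 0.170 and 0.382 CPM in the matched AAV-GFP libraries, from 2 to 7 UMIs each. Of the 5 lymphatic markers, Lyve1 had 14 UMIs, Mmrn1 19 and Ccl21a 6 over all nuclei. Prox1 had 6996 UMIs and Pdpn 1039, and both are also known outside lymphatic vessels, Prox1 in dentate granule cells and Pdpn in glia and choroid plexus. Differences in Flt4 were not detectable at this depth.

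Nrp1, a co-receptor for VEGFA and for semaphorins, had the most UMIs of the 10 genes (17895). Excitatory neurons had 286 CPM in TBI AAV-VEGFC right, 285 in TBI AAV-VEGFC left and 257 in sham AAV-VEGFC right, against 238 in TBI AAV-GFP right, 257 in TBI AAV-GFP left and 246 in sham AAV-GFP right, a mean of 262 ± 19.8 CPM. Microglia had 226 ± 93.8 CPM and overlapped them. Mixed neurons (93.1 ± 30.8), fibroblasts (91.2 ± 49.9), choroid plexus (82.0 ± 13.6) and inhibitory neurons (79.9 ± 12.6 CPM) could not be ordered by their ranges. Inhibitory neurons lay above astrocytes (54.8 ± 6.61 CPM), and astrocytes above OPCs (9.53 ± 3.45) and oligodendrocytes (7.15 ± 5.27 CPM). A Nrp1 UMI was present in 56.1% of excitatory neurons (21.3% after thinning) and in 0.973% of oligodendrocytes (0.677%).

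Excitatory clusters covered a wide range of Nrp1. Excitatory neuron 15, with 55 nuclei, had 949 ± 306 CPM, and its lowest library (614 CPM) lay above the highest of the next cluster, Excitatory neuron 11 (482 ± 84.9 CPM). Excitatory neuron 4, with the highest sum of CA3 pyramidal markers (2247 CPM), had 423 ± 33.8 CPM, and Excitatory neuron 3 had 385 ± 18.8 CPM. Excitatory neuron 2, with the highest sum of dentate granule markers (1731 CPM), had 227 ± 15 CPM. Excitatory neuron 1, with the highest sum of CA1 markers (772 CPM), had 186 ± 11.3 CPM, and its highest library (203 CPM) lay below the lowest of Excitatory neuron 2 (206 CPM). The genes closest to Nrp1 over the clusters were Aagab and Pip5k1a (Pearson r 0.766 and 0.738, n = 32 clusters).

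Nrp2, the neuropilin that also binds VEGFC, had another order. Microglia had 184 ± 36.7 CPM, mixed neurons 164.5 ± 25.4, inhibitory neurons 124 ± 9.52 and excitatory neurons 114 ± 10.2 CPM, each overlapping the next. Choroid plexus was lowest with 15.3 ± 5.95 CPM. The sharpest contrast lay within astrocytes. Astrocyte 3 had 147 CPM in TBI AAV-VEGFC right, 182 in TBI AAV-VEGFC left and 148 in sham AAV-VEGFC right, against 204 in TBI AAV-GFP right, 166 in TBI AAV-GFP left and 199.7 in sham AAV-GFP right. Astrocyte 1 had 6.77 to 12.4 CPM in those 6 libraries, so the clusters were far apart in every library, with Nrp2 high where Vegfa was lower. Nuclei of Astrocyte 3 with a Nrp2 UMI had 171 CPM of endothelial markers and those without one 123 CPM. Among excitatory clusters, Excitatory neuron 11 had 301 ± 45.6 CPM of Nrp2 and Excitatory neuron 12 267 ± 47.3 CPM, while Excitatory neuron 1 had 44.0 ± 5.72 CPM. Noc2l was closest to Nrp2 in pattern (Pearson r 0.732, n = 32 clusters).

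**Figure D4:**
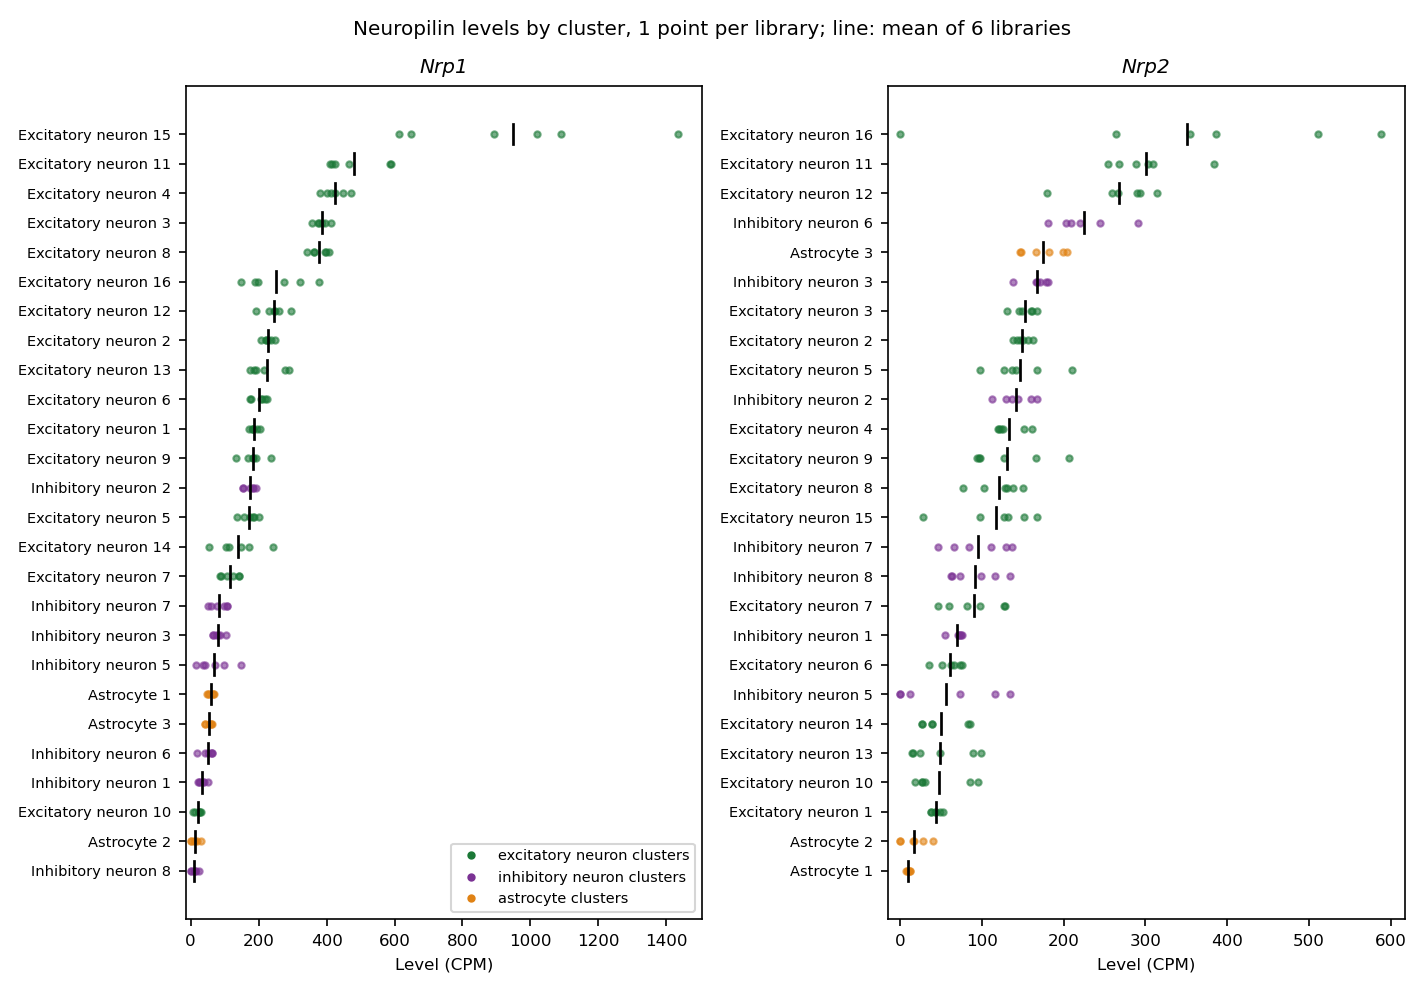
Level (CPM) of Nrp1 and Nrp2 in the 26 clusters of neurons and astrocytes, ordered by mean, with 1 point per library and a line at the mean of 6 libraries. Excitatory neuron 15 leads for Nrp1 with all libraries above 613 CPM, and Astrocyte 3 (174.5 CPM) stands far from Astrocyte 1 (9.92 CPM) for Nrp2.

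The effect of the vector was tested in 1 edgeR model over all 6 libraries, in which operation and side together formed a second term. The spread in it is the departure from additive effects, so a vector effect that differs between operations or sides is counted as spread. Of 90 pairs of a gene and a class, 43 passed the filter on low counts: Nrp2 was tested in 9 classes, Vegfa, Vegfb and Nrp1 in 7 each, Vegfc and Flt1 in 4, Vegfd in 3, Pgf in 2, and Kdr and Flt4 in none. AAV-VEGFC over AAV-GFP changed 0 of the 43 pairs by edgeR's quasi-likelihood test at an adjusted p of 0.05, where 0.0281% of all genes tested in the classes were called. At an unadjusted p under 0.05 there were 5 pairs, 11.6% of those tested, against 5.41% over all genes. DESeq2 and limma-voom called 0 pairs as well, with 0 and 5 pairs under an unadjusted p of 0.05. In the 17 clusters with at least 20 nuclei in every library, 0 of 66 pairs were called (background 0.0219%), with 7 under an unadjusted p of 0.05, and over all nuclei 0 of 9 genes (background 0.0%), with 1 such gene. The unadjusted counts were 10.6% of cluster pairs and 11.1% over all nuclei, against 5.43% and 6.14% over all genes. DESeq2 and limma-voom called 0 there too.

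The 5 pairs in classes were all neuropilins and all higher with AAV-VEGFC, none past the adjusted threshold. Over all nuclei Nrp1 had 192 CPM in TBI AAV-VEGFC right, 192 in TBI AAV-VEGFC left and 186 in sham AAV-VEGFC right, against 163, 169 and 168 CPM in the matched AAV-GFP libraries. The groups did not overlap, and AAV-VEGFC was higher in 3 of 3 contexts, by a log2 fold of 0.22 (SE 0.06, unadjusted p = 0.0037, edgeR adjusted p = 0.682). The fold was 0.19 in excitatory neurons (adjusted p = 0.739), 0.50 in mixed neurons (adjusted p = 1.00), 0.63 in microglia (adjusted p = 0.768) and 1.14 in fibroblasts (adjusted p = 0.994, edgeR). Nrp2 in fibroblasts had 111 CPM in TBI AAV-VEGFC right, 87.4 in TBI AAV-VEGFC left and 111 in sham AAV-VEGFC right. The matched AAV-GFP libraries had 52.2, 42.9 and 44.4 CPM, without overlap, from 44 UMIs in all (log2 fold 1.16, SE 0.56, edgeR adjusted p = 0.994). The TBI left values rest on few Nrp2 UMIs, from 27 fibroblast nuclei with AAV-VEGFC (45757 UMIs of all genes) and 32 with AAV-GFP (46662).

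Within the excitatory clusters the Nrp1 log2 fold was above 0 in 7 of the 10 tested and below 0 in 3, with a median of 0.10 and a range of -0.08 to 0.23, and 0 had an unadjusted p under 0.05 (edgeR). Clusters with high Nrp1 took different shares of the libraries. Excitatory neuron 3 held 11.4% of UMIs in TBI AAV-VEGFC right, 9.39% in TBI AAV-VEGFC left and 7.48% in sham AAV-VEGFC right, against 6.28%, 9.86% and 7.56% in the matched AAV-GFP libraries. With each of the 32 clusters given its share over all 6 libraries, a calculation added after seeing the data, Nrp1 stood at 184, 185 and 183 CPM in the AAV-VEGFC libraries, against 171, 173 and 180 CPM in the matched AAV-GFP libraries. The log2 ratio of the group means was then 0.07, against 0.19 as found. The groups did not overlap in either case. With nuclei held to a doublet score of at most 0.05, the edgeR log2 fold over all nuclei was 0.12 (unadjusted p = 0.158). All other alternatives, leave-one-out fits among them, gave folds of 0.18 to 0.25. Apart from leave-one-out fits, their unadjusted p was 0.0012 to 0.0104 (edgeR, DESeq2 or limma-voom), none past the adjusted threshold.

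**Figure D5:**
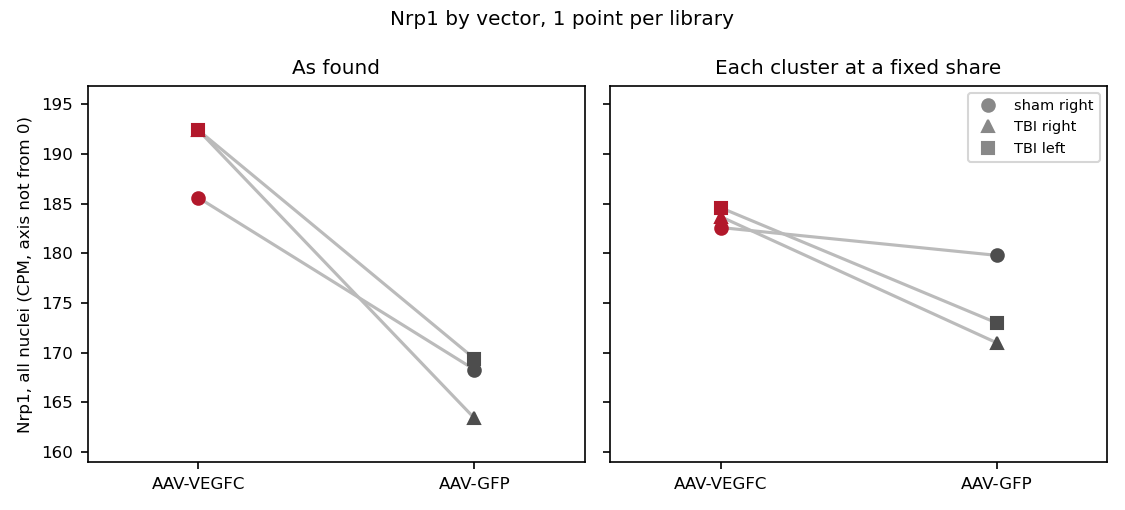
Nrp1 level over all nuclei (CPM, on an axis that does not start at 0) in the 3 AAV-VEGFC libraries (red) and the 3 AAV-GFP libraries (grey), with matched contexts joined. As found (left) the groups are apart, 186 to 192 against 163 to 169 CPM. With every cluster at a fixed share (right) they stand closer, still without overlap, at 183 to 185 against 171 to 180 CPM.

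Of the 7 cluster pairs under an unadjusted p of 0.05, Vegfa in Inhibitory neuron 3 had the smallest p. It had 16.5 CPM in TBI AAV-VEGFC right, 19.4 in TBI AAV-VEGFC left and 17.5 in sham AAV-VEGFC right, against 37.9, 34.1 and 38.1 CPM in the matched AAV-GFP libraries, from 10 to 23 UMIs each. The groups did not overlap, and the log2 fold was -0.99 (SE 0.31, unadjusted p = 0.0017, edgeR adjusted p = 0.664). In Astrocyte 3 Nrp1 had a log2 fold of 0.45, Vegfd of -0.78 and Flt1 of -0.76, with edgeR adjusted p of 0.783, 0.623 and 0.779. The vector groups overlapped for Vegfd and for Flt1 (6.17 to 29.7 against 26.8 to 31.3 CPM). Flt1 was higher with AAV-VEGFC in 1 of 3 contexts. This cluster held 20 of the 70 nuclei with at least 4 endothelial markers. Nrp2 had 0.28 in Excitatory neuron 4, 0.42 in Excitatory neuron 8 and 0.59 in Excitatory neuron 9, with edgeR adjusted p of 0.770, 0.919 and 0.600. Excitatory neuron 5 was the 1 cluster where leaving out a library gave a call: its Nrp2 fold was 0.75 without the sham AAV-GFP library (edgeR adjusted p = 0.0144) and 0.75 without the sham AAV-VEGFC library (edgeR adjusted p = 0.0254), against 0.44 with all libraries. Calls over all genes were also more frequent in those fits, 0.428% without the sham AAV-GFP library and 0.437% without the sham AAV-VEGFC library.

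TBI right over sham right called 0 of 43 gene and class pairs in edgeR (background 0.0782%), with 4 under an unadjusted p of 0.05, 0 of 66 cluster pairs (background 0.0514%), with 3, and 0 of 9 genes over all nuclei (background 0.00519%), with 0. The unadjusted counts were 9.3% of class pairs, 4.55% of cluster pairs and 0.0% over all nuclei, against 5.03%, 5.09% and 5.3% over all genes. DESeq2 and limma-voom called 0 as well. Fibroblast Flt1 had 157 to 273 CPM after TBI on the right, against 102 to 121 CPM after sham, a log2 fold of 0.94 (SE 0.38, edgeR adjusted p = 0.862). Excitatory neuron Flt1 had 2.75 to 3.66 CPM after TBI, against 1.47 to 1.95 CPM (log2 fold 0.92, edgeR adjusted p = 0.973), and without the nuclei with 4 or more endothelial markers the fold was 0.67 (unadjusted p = 0.183). With nuclei held to a doublet score of at most 0.05 its direction turned, with a log2 fold of -0.0516. Nrp1 had a fold of -0.82 in microglia (126 to 213 against 215 to 405 CPM, edgeR adjusted p = 0.794) and of 0.49 in choroid plexus (83.5 to 103 against 66.0 to 71.3 CPM, edgeR adjusted p = 0.896). None of these ranges overlapped, with 2 libraries on each side. The pairs were picked by an unadjusted p under 0.05, so the lack of overlap adds no support.

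Among the clusters the smallest p was that of Nrp2 in Excitatory neuron 7, with 46.6 to 97.8 CPM against 127 to 128 CPM after sham (log2 fold -1.07, edgeR adjusted p = 1.00). Without the sham AAV-VEGFC library that fold was -1.41 and passed the threshold (edgeR adjusted p = 0.0068), and so did Vegfd in the same cluster (3.70, adjusted p = 0.00082), which then rested on the low sham AAV-GFP library named above. Over all genes 0.239% were called in that fit. Nrp2 in Excitatory neuron 1 had 48.7 to 52.0 CPM against 37.7 to 42.7 CPM (log2 fold 0.35, edgeR adjusted p = 0.766). Vegfb in Excitatory neuron 3 had 12.1 to 16.6 CPM against 7.57 to 8.72 CPM (log2 fold 0.87, edgeR adjusted p = 0.751).

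TBI right over TBI left, the struck side over the other, called 0 of 43 class pairs in edgeR (background 0.0318%), with 1 under an unadjusted p of 0.05, 0 of 66 cluster pairs (background 0.0438%), with 2, and 0 of 9 genes over all nuclei (background 0.0%), with 2. The unadjusted counts were 2.33% of class pairs, 3.03% of cluster pairs and 22.2% over all nuclei, against 3.49%, 3.93% and 2.58% over all genes. DESeq2 and limma-voom called 0 as well. This comparison shares the TBI right libraries with the one before. Kdr over all nuclei had 0.716 to 0.990 CPM on the right, against 0.284 to 0.374 CPM on the left (log2 fold 1.38, SE 0.52, edgeR adjusted p = 1.00), from 5 to 17 UMIs per library. Flt1 had 4.56 to 6.58 CPM on the right, against 2.95 to 4.30 CPM on the left (log2 fold 0.63, edgeR adjusted p = 1.00). In Inhibitory neuron 1 Vegfc had 26.9 to 28.2 CPM against 13.9 to 17.5 CPM (log2 fold 0.83, edgeR adjusted p = 0.998), and in Inhibitory neuron 2 Vegfa had 11 to 12.3 CPM against 25.6 to 28.5 CPM (log2 fold -1.20, edgeR adjusted p = 1.00). Flt1 in excitatory neurons had a fold of 0.99 (unadjusted p = 0.0181), which was 0.42 (unadjusted p = 0.381, edgeR) without the nuclei with 4 or more endothelial markers and 0.0147 at a doublet score of at most 0.05. Fibroblasts held 0.643% to 0.892% of UMIs on the right after TBI, against 0.265% to 0.285% on the left. With each of the 32 clusters at a fixed share, Flt1 over all nuclei had 4.93 to 5.62 CPM on the right. On the left it had 3.69 to 4.14 CPM. Kdr then had 0.745 to 1.11 CPM on the right, against 0.361 to 0.420 CPM on the left. Beyond these values, the part of the fibroblast share in Flt1 and Kdr was not tested.

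A difference of the vector's effect between TBI and sham was tested with the left and right TBI libraries taken as replicates. Each vector had 1 sham library, so a gene's own spread came from left against right TBI and holds any effect of side. edgeR called 1 of 45 gene and class pairs (background 0.221%), Flt1 in oligodendrocytes. It had 2 UMIs (3.60 CPM) in TBI AAV-VEGFC right, 5 (7.46 CPM) in TBI AAV-VEGFC left and 13 (31.4 CPM) in sham AAV-VEGFC right, against 21 (31.4 CPM), 5 (11.2 CPM) and 1 (2.05 CPM) in the matched AAV-GFP libraries. The difference of log2 folds was -5.72 (SE 1.31, edgeR adjusted p = 0.0114). DESeq2 and limma-voom called 0 of the 45 pairs, with 1 and 8 under an unadjusted p of 0.05. edgeR had 7 such pairs, 15.6% of those tested, against 7.24% over all genes.

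The 47 UMIs came from 18 of 2261 oligodendrocyte nuclei, 7 of them in the TBI AAV-GFP right library and 4 in the sham AAV-VEGFC library. Those 18 nuclei had 4290 CPM of endothelial markers, against 30.5 CPM in oligodendrocytes without a Flt1 UMI, and oligodendrocyte markers at 11700 and 13100 CPM. The 9 oligodendrocyte nuclei with at least 4 endothelial markers, 8 of them among those 18, held 33 of the 47 UMIs. Without them the library values were 3.60, 3.0 and 2.45 CPM with AAV-VEGFC, against 4.58, 11.2 and 2.05 CPM in the matched AAV-GFP libraries, and Flt1 no longer passed the filter on low counts.

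A further 6 pairs had an unadjusted p under 0.05 without passing the adjusted threshold, among them Pgf in inhibitory neurons (difference of log2 folds 2.33, edgeR adjusted p = 0.95), Vegfd in excitatory neurons (-1.35, adjusted p = 0.451) and Vegfa in astrocytes (0.36, adjusted p = 0.621). Nrp2 had 0.31 in excitatory neurons and 0.76 in mixed neurons (adjusted p = 0.480 and 0.438), and Vegfb -1.59 in mixed neurons (adjusted p = 0.417).

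Genes that act with the family were followed in 4 lists of 73 genes in all: secreted semaphorins and plexins, the other partners of neuropilins, with 12 genes, hypoxia regulators and targets with 18, signalling proteins downstream of the receptors with 35, and proteases and cofactors that process VEGFC and VEGFD with 8. None of their gene and class pairs was called in edgeR, DESeq2 or limma-voom for AAV-VEGFC over AAV-GFP (420 pairs), TBI right over sham right (420), TBI right over left (420) or the difference of vector folds (456). At an unadjusted p under 0.05 there were 19, 22, 20 and 27 pairs, or 4.52%, 5.24%, 4.76% and 5.92%, close to 5.41%, 5.03%, 3.49% and 7.24% over all genes. In the clusters 0 of 762 pairs were called in each of the 3 comparisons, with 42, 46 and 32 under an unadjusted p of 0.05. These were 5.51%, 6.04% and 4.2%, against 5.43%, 5.09% and 3.93% over all genes.

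By list, the median log2 fold with AAV-VEGFC in the classes was 0.01 for semaphorins and plexins, -0.03 for hypoxia genes, -0.00 for receptor signalling and -0.00 for processing genes. After TBI on the right these medians were 0.06, 0.03, 0.02 and 0.00.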

How the data were processed

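Per the labels' protocols, single-nucleus 3′ libraries were made with a 10x Genomics kit. The submitters' processing notes list Cell Ranger 7.0.1, Scanpy and mm10, without settings. The authors deposited a matrix of raw UMI counts. The metadata deposited by the authors give each nucleus's library, class, cluster, total count and a doublet score. They also give, per the file headers, mitochondrial and ribosomal content in percent. The lowest total among deposited nuclei was 1001 UMIs, and doublet scores ended at 0.099. No doublet caller was run and all nuclei were kept. The matrix sums of 1827 nuclei differed from the deposited totals by at most 9 UMIs.

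Counts were summed per library over each class and each cluster with at least 20 nuclei in every library, and over all nuclei. They were tested with edgeR 4.0.16 in R 4.3.3 (filterByExpr, TMM, quasi-likelihood test), with context and vector as terms, which leaves 2 residual degrees of freedom before spread is borrowed between genes. Smallest sums were 45757 UMIs (fibroblasts) and 54357 UMIs (microglia), where single genes are least precise. Benjamini-Hochberg adjustment ran over all genes of a class or cluster, with calls at 0.05. Dividing the absolute log2 fold by the root of the F statistic gave its SE. Poisson intervals cover counting error only. Thinned shares are expected shares at 1000 UMIs per nucleus. Gene coordinates are from the GENCODE M21 annotation.

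The text gives all 10 genes and Vegfc over all nuclei. It gives every gene and class or cluster pair with an adjusted or unadjusted p under 0.05. Where groups are said not to overlap for results picked this way, that adds no support. The share of all genes without overlap was not counted. The closest genes by Pearson r over 32 clusters with at least 100000 UMIs are given for Vegfb, Vegfc, Nrp1 and Nrp2, clone names passed over. For Vegfa, Vegfd and Flt1 the closest were Kifc3, Rbis and Nupr1 (Pearson r 0.843, 0.773 and 0.856). The 10 genes and the lists were chosen with earlier results of these data known. Alternatives were DESeq2 1.42.0, limma-voom (limma 3.58.1), scaling by RLE or by library totals, no low-count filter, nuclei with at least 2000 UMIs, a doublet score of at most 0.05, leaving out the nucleus with most UMIs of a gene, no context term, and leaving out each library. Leaving out nuclei with at least 4 endothelial markers and giving each cluster a fixed share were added after seeing the data. The fits were also run on simulated counts, in which the changed genes had larger folds than most given here. Those genes had more counts than Flt1 in oligodendrocytes, so that run does not cover small folds or sparse genes. The astrocyte marker sum of the fibroblast class covers 6 genes, chosen after seeing the data, and the sum over the whole list, which is higher, is not reported here.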

Additional observations from a re-analysis of the deposited data

Results flagged for a closer look

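Flt1 in oligodendrocytes was picked out because the AAV-VEGFC effect after TBI differed from that after sham by an interaction term, with a difference of log2 folds of -5.72 (edgeR adjusted p = 0.0114). It rested on 47 UMIs in 18 of 2261 nuclei, 8 of which carried at least 4 endothelial markers and held 33 of those UMIs. Nuclei with a Flt1 UMI numbered 1, 3 and 4 in the TBI right, TBI left and sham AAV-VEGFC libraries, against 7, 2 and 1 in the matched AAV-GFP libraries.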

How the results depend on the processing

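The single call, the Flt1 difference of vector folds in oligodendrocytes, was kept with RLE factors, library totals and no filter. The count fell to 0.0 calls with DESeq2, limma-voom, at least 2000 UMIs, a doublet score of at most 0.05, without the nucleus with most UMIs, and without nuclei with 4 or more endothelial markers (added after seeing the data). Leaving out 1 library at a time gave 0 to 1 calls (0 without any of TBI AAV-GFP right, TBI AAV-VEGFC right or left), and no value without a sham library. Leave-one-out gave 0 to 2 calls for TBI and 0 to 1 calls for the vector in clusters, against 0 with all libraries. Calls over all genes rose too, to 0.239% for TBI without the sham AAV-VEGFC library and to 0.428% and 0.437% for the vector without the sham AAV-GFP or sham AAV-VEGFC library, against 0.0514% for TBI and 0.0219% for the vector. The cause was not tested.

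Signs changed for Vegfc over all nuclei and for Flt1 in excitatory neurons. Vegfc was 0.0349 for the vector with at least 2000 UMIs and -0.0387 to 0.0126 over leave-one-out fits. For TBI its leave-one-out range was -0.0781 to 0.0136. For right over left it was -0.0645 with at least 2000 UMIs, -0.126 at the stricter doublet score, -0.00525 without the endothelial-marker nuclei, and -0.0225 to 0.0345 over leave-one-out fits. Flt1 in excitatory neurons after TBI was -0.0516 at the stricter doublet score, against 0.92 with all nuclei. That score left some libraries without fibroblast or microglial nuclei, so it gave no value there.

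No analysis paired by mouse was possible, because the labels number the 6 libraries 1 to 6 and do not say which share mice. Libraries were matched by operation and side instead, in the model of the vector effect. Depth limits Kdr (71 UMIs), Flt4 (27 UMIs) and Pgf (242 UMIs).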
